A study of Homo sapiens with 19 samples.

Results

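The 10 genes described here encode the main chaperones and helper proteins of the endoplasmic reticulum (ER) together with XBP1, a transcription factor that controls many of them. They are HSPA5, HSP90B1, PDIA4, DNAJB9, SDF2L1, MANF, CRELD2, HERPUD1, DERL3 and XBP1. They were chosen by name and matched by Ensembl identifier, and all 10 were found among the 32703 gene identifiers shared by all 19 count matrices. No measured value entered the choice, although earlier results of these data were known when it was made.

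The libraries are droplet single-cell RNA profiles (10x Genomics 3′ chemistry, version 3) of liver organoids grown from W01, an established wild-type human pluripotent stem cell line distributed by WiCell. All organoids are therefore of 1 genotype. Static culture on ultra-low attachment (ULA) plates, without treatment, gave 3 libraries from day 21 and 2 from day 34. The other 14 libraries come from day 25 of orbital shaker culture and form 7 groups with n = 2 each. One group was untreated, 3 groups received TGFB1 (transforming growth factor β1, the best studied fibrogenic cytokine of liver, 10 ng/ml), PA (500 µM) or OA (500 µM), and each treatment had a control group of its own. PA and OA are kept here as the abbreviations that the labels use. Treatment with TGFB1 or PA came after 20 days of culture and ran for 5 days, and OA is named in the sample titles and treatment labels alone. Nothing in the labels says that replicate libraries came from separate differentiations, so the p-values below measure the spread between these libraries, which may be partly technical.

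Proteins that enter the ER fold there with the help of chaperones, and unfolded protein that builds up is sensed by the membrane proteins IRE1, ATF6 and PERK. IRE1 splices the XBP1 transcript so that it encodes an active transcription factor, and ATF6 is cut in the Golgi to release another. Both raise transcription of chaperones and of factors that return misfolded proteins to the cytosol for degradation, a programme called the unfolded protein response. Hepatocytes export most of the plasma proteins and fibroblasts export collagen, so both cell types carry a large ER. UMI counts from the 3′ end of transcripts measure the level of XBP1 RNA but not its splicing.

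The binding sites through which this programme was first described are short and can be read in the promoters of the members, which is why these stretches are shown. RefSeq promoter windows (build GRCh38.p14) around the annotated start were at hand for 9 of the 10 members. The ER stress element, which is CCAAT, any 9 bases and then CCACG on either strand, was found in 4 of these 9 genes and in 0.0916% of all 27305 genes with a window (0.0769% of 35116 windows). The shorter second form, ATTGG, any base and then CCACG, was found in 2 of the 9 and in 0.0696% of genes (0.0541% of windows). Each stretch is written 5′ to 3′ along the gene's strand, and capitals mark the element or its reverse complement.
HSPA5: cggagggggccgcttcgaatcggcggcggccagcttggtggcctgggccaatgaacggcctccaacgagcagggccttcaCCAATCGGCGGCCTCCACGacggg
XBP1: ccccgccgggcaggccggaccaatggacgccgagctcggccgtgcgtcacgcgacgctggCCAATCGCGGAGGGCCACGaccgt
CRELD2: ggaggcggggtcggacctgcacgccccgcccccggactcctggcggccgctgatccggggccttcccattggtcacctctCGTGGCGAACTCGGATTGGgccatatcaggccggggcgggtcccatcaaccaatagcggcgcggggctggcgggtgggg
HSP90B1, upstream copy: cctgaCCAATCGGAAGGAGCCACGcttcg
HSP90B1, downstream copy: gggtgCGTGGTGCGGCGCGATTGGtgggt
HERPUD1: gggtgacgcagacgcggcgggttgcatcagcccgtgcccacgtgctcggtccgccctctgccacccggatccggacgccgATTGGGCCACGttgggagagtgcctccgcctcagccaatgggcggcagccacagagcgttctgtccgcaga
SDF2L1: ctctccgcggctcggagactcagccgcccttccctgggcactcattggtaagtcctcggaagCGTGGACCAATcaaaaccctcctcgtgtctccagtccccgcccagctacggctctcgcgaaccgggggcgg

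The HSPA5 stretch lies at chr9:125241386-125241489 on the minus strand, that of XBP1 at chr22:28800598-28800681 on the minus strand and that of CRELD2 at chr22:49918474-49918632 on the plus strand. The HSP90B1 copies lie at chr12:103930211-103930239 and chr12:103930316-103930344, both on the plus strand and inside an annotated exon of the GENCODE annotation, which the other stretches do not touch. The HERPUD1 stretch lies at chr16:56931945-56932095 and that of SDF2L1 at chr22:21642052-21642184, both on the plus strand. In the windows of DNAJB9, PDIA4 and MANF neither form was found. The letters TGACGTGG, the core of another described site, were found in the windows of 0 of 9 members and in those of 0.927% of genes (0.729% of windows). The 5 letters CCACG, which both elements contain, were found in 9 of 9 members and in 42.1% of genes (38.1% of windows). These matches describe letters, not binding.

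A cell was kept if it had 500 or more genes and no more than 20% of its UMIs from mitochondrial genes, which left 3089 to 12427 cells and 6880807 to 91184130 UMIs per library. Levels are given as CPM, a gene's UMIs per 1e6 UMIs summed over the kept cells of a library. In such sums, fewer cells of a type and less RNA per cell cannot be told apart. The libraries were uneven in depth: the shallowest were replicates 1 of the TGFB1 control and of the PA control, with medians of 1310 and 1747 UMIs per cell. The label of liver tissue was checked on hepatocyte markers: AFP lay between 2.88 and 5855 CPM and ALB between 0.0385 and 685 CPM, with ALB below 1 CPM in the TGFB1 and the day 34 ULA libraries. No pair of libraries shared more than 32 cell barcodes. Cells with a UMI of EPCAM, an epithelial surface protein, and none of the fibrillar collagen genes COL1A2 or COL3A1 were taken as EPCAM-positive, and the reverse as collagen-positive. A class can thus rest on 1 UMI, and how many such UMIs came from free RNA was not measured. Only classes with at least 50 cells in a library were tested, by edgeR's quasi-likelihood test across all genes with a call at a Benjamini-Hochberg adjusted p below 0.05.

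All 10 members were higher with TGFB1 than in its control when all kept cells were summed. With edgeR, 10 of 10 passed the threshold as higher, against 22.2% of the 19366 genes tested, of which 10.9 points were higher and 11.3 lower. The members' median log2 fold change was 1.66 and that of all genes tested was -0.05. The size ranged from 0.79 for PDIA4 to 2.24 for DERL3.

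HSPA5 (BiP), the HSP70-type chaperone that also holds the stress sensors inactive, stood at 1689 and 1291 CPM with TGFB1 and at 594 and 811 in the control. It rose by 1.27 ± 0.27 (SE) on the log2 scale (adjusted p = 0.0051). HSP90B1 (GRP94), the HSP90-type chaperone of the ER, stood at 2918 and 2059.6 CPM against 1306 and 1392. Neither chaperone's treated and control libraries overlapped, but the share of all genes separated in this way was not counted for this comparison. HSP90B1 rose by 1.08 ± 0.25 on the log2 scale (adjusted p = 0.0086). PDIA4, which forms disulfide bonds, had the smallest change: 427 and 362 CPM against 328 and 203, a difference of 0.79 ± 0.25 (adjusted p = 0.035). The control libraries of PDIA4 were further apart than its treated ones.

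DNAJB9 and SDF2L1 assist HSPA5, the first as a J-domain partner and the second as a subunit of a chaperone complex. DNAJB9 stood at 101 and 78.5 CPM with TGFB1 and at 24.3 and 41.3 in the control, a log2 change of 1.61 ± 0.32 (adjusted p = 0.0031). SDF2L1 stood at 390.4 and 232 CPM against 58.9 and 115, a change of 2.00 ± 0.34 (adjusted p = 0.001). In both genes replicate 1 was the higher of the treated libraries and the lower of the controls. MANF and CRELD2 are small proteins of the ER lumen that can also be secreted. MANF stood at 815 and 582 CPM against 145 and 211, a change of 2.15 ± 0.34 (adjusted p = 0.00075). CRELD2 stood at 196 and 123 CPM against 50.5 and 60.5, a change of 1.71 ± 0.27 (adjusted p = 0.00061). The lowest treated library was above the highest control in each of the 4 genes, again without a count over all genes.

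HERPUD1 and DERL3 act in ER-associated degradation, the route that pulls misfolded proteins into the cytosol. HERPUD1 stood at 231 and 161 CPM with TGFB1 and at 48.7 and 78.3 in the control, a log2 change of 1.79 ± 0.31 (adjusted p = 0.0013). DERL3 was scarce, with 412 and 258 UMIs in all against 24 and 114, which is 9.36 and 6.58 CPM against 1.52 and 2.18. Its change of 2.24 ± 0.31 (adjusted p = 0.00026) was the largest of the 10. XBP1 itself stood at 179 and 134 CPM against 82.9 and 101, a change of 0.95 ± 0.23 (adjusted p = 0.01). TGFB1 replicate 1 was the higher of the treated libraries for all 10 genes. Without it 6 of 10 members passed, and HSPA5, HSP90B1, PDIA4 and XBP1 did not.

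**Figure D1:**
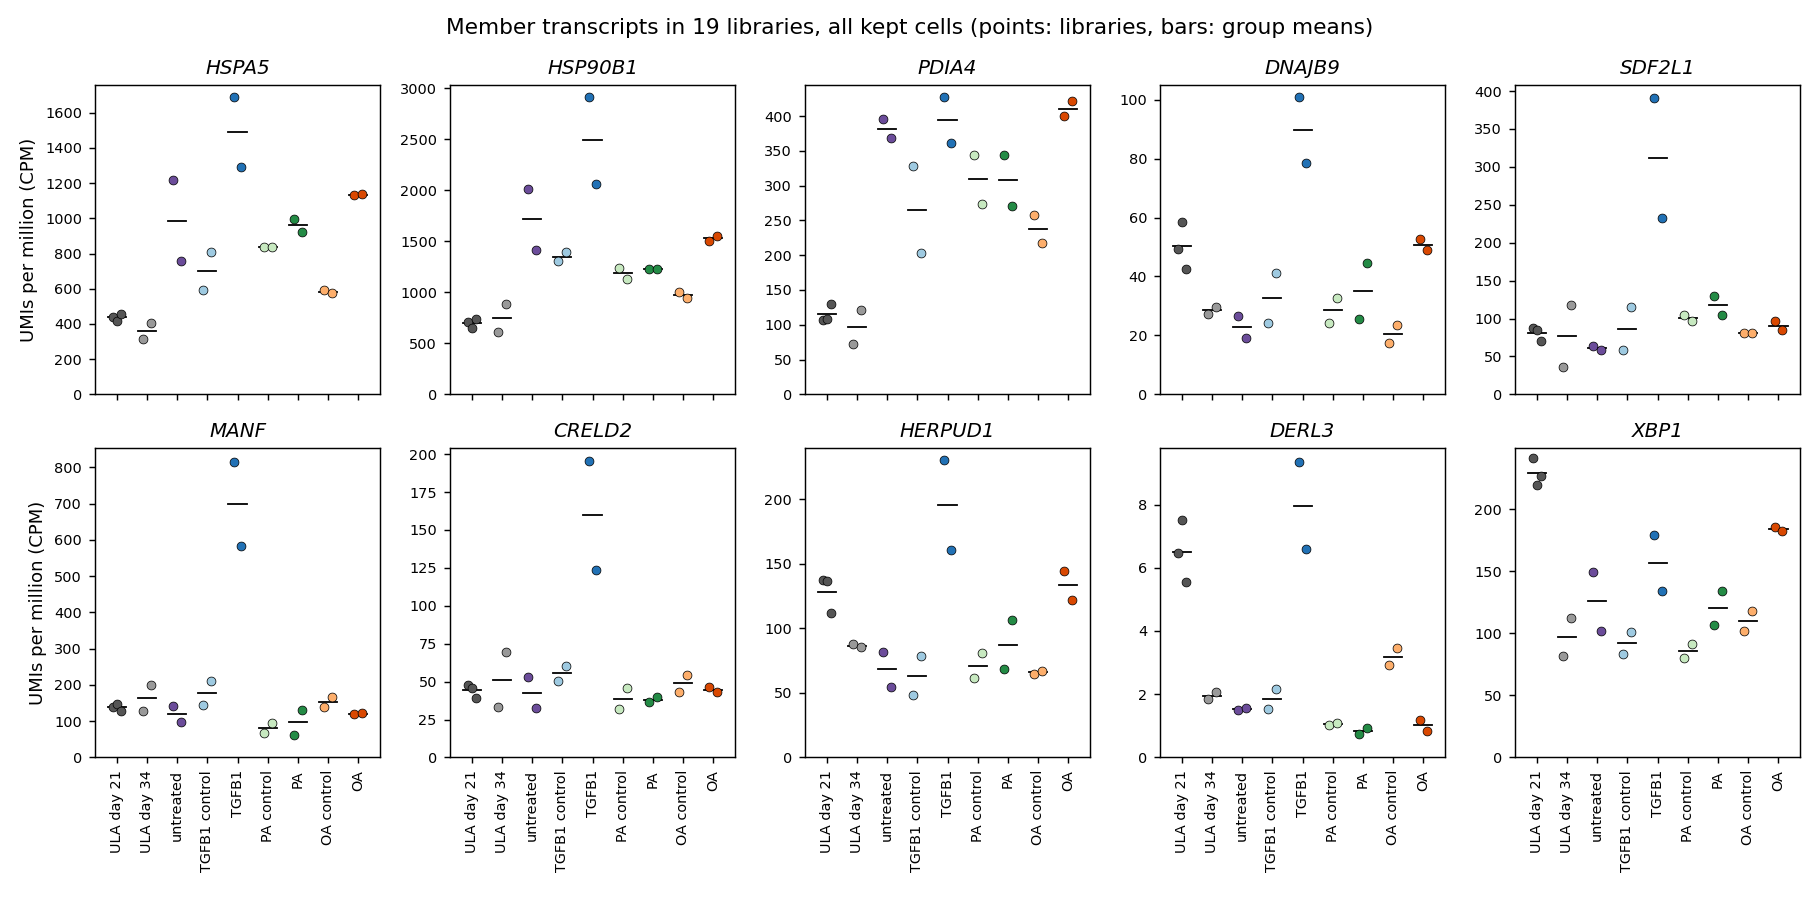
CPM of each member (vertical axes, linear, from 0) in the 19 libraries by group, over all kept cells. Points are libraries and bars are group means: among the 7 shaker groups the mean is highest with TGFB1 for 8 of 10 members and with OA for PDIA4 and XBP1, and over all 9 groups XBP1 is highest in the day 21 ULA libraries.

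The same was seen within epithelial cells. Among EPCAM-positive cells (4099 and 5358 with TGFB1, 4690 and 7308 in the control), 10 of 10 members were higher, against 25% of 17527 genes tested (12.3% higher), with a median log2 change of 1.50 against -0.06 for all genes. HSPA5 stood at 1709.9 and 1259.6 CPM against 564 and 792, and MANF at 827 and 559.6 against 135 and 199. DERL3 was lower there than in the whole sum, at 4.46 and 1.98 CPM against 1.11 and 1.44. Without TGFB1 replicate 1, 5 of the 10 passed.

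In collagen-positive cells (513 and 660 with TGFB1, 439 and 333 in the control), all 10 members had a positive log2 fold change and none passed the threshold. There edgeR called 0.0211% of 14189 genes. DESeq2 called 4 of the 10 members and 0.768% of all genes. With edgeR, 8 of the 10 members and 13.4% of all genes had an unadjusted p below 0.05. The members' median log2 change was 1.12, and that of all genes was 0.00. Both treated libraries were above both controls in CPM for 9 of 10 members and for 14.4% of all genes tested, with PDIA4 overlapping at 491 and 469.9 CPM against 576 and 311. DERL3 stood at 42.8 and 31.2 CPM against 4.03 and 14.6, from 137, 124, 3 and 31 UMIs. SDF2L1 stood at 582 and 420.4 CPM against 107 and 218. CRELD2, at 369.9 and 266 CPM against 129 and 133, had the lowest adjusted p, 0.073. The count changed when TGFB1 control replicate 2 was left out. That fit leaves 1 control library and takes its spread from the other groups.

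Between the classes the TGFB1 effect differed for 2 members, against 6.32% of 18747 genes tested and 3.71% in the same direction. The log2 change of MANF was larger in EPCAM-positive cells by 0.82 ± 0.19 (edgeR adjusted p = 0.0066) and that of HERPUD1 by 0.73 ± 0.22 (adjusted p = 0.047). In both control libraries all 10 members had the lower level in the EPCAM-positive cells. HERPUD1 stood at 43.6 and 72.4 CPM there and at 150.5 and 178 in the collagen-positive cells. The share of all genes lower in EPCAM-positive cells of both controls was not counted, and a link to the differing effects was not tested. For HSP90B1 the difference was 0.04, with a 95% interval from -0.36 to 0.44. Without TGFB1 replicate 1 or without control replicate 2, 0 members differed between the classes, and without control replicate 1 there was 1.

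**Figure D2:**
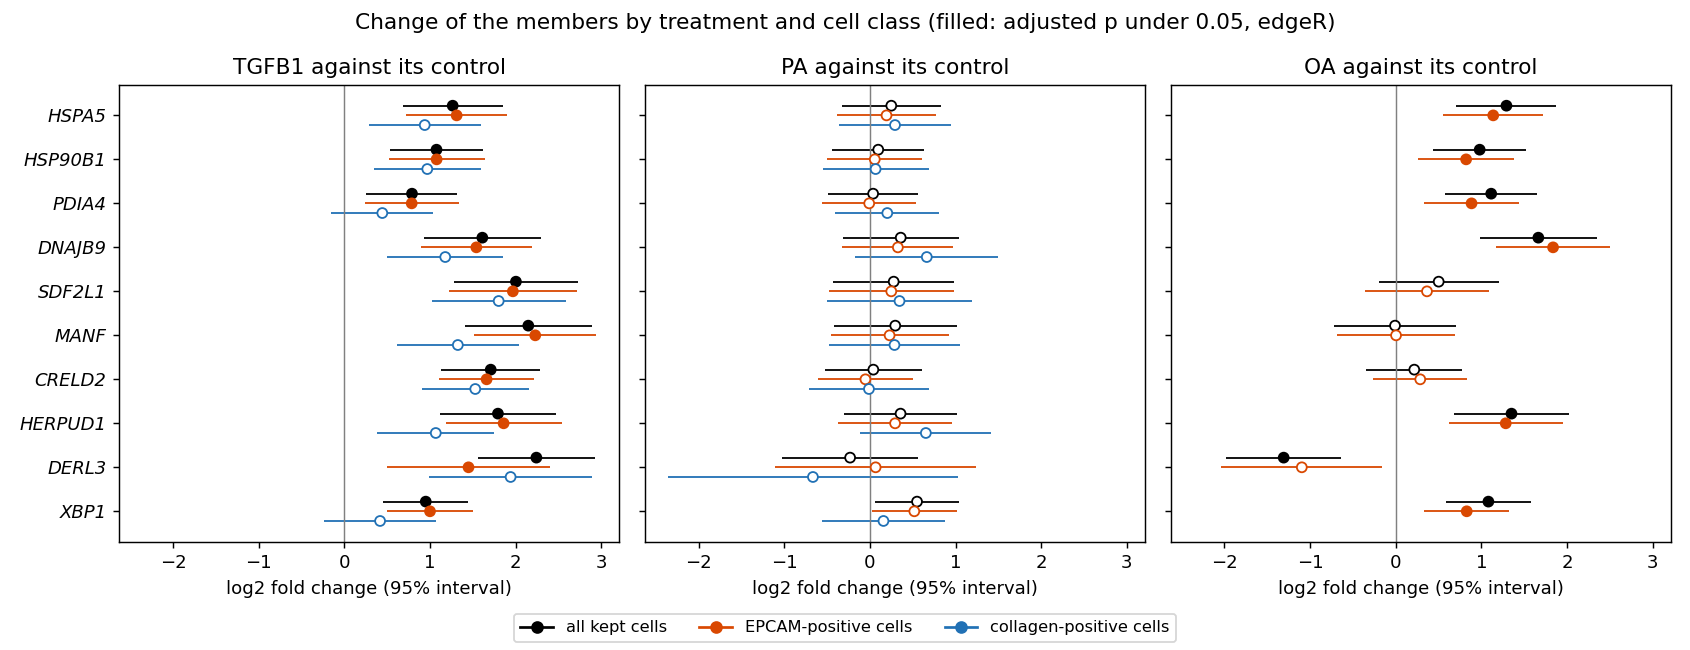
Log2 fold change of each member (horizontal axes, with 95% intervals) with TGFB1, PA and OA against their controls, in all kept cells, EPCAM-positive and collagen-positive cells. Filled points passed the threshold: 10, 10 and 0 with TGFB1, none with PA, and 7 and 6 with OA, for which collagen-positive cells are not drawn because 1 treated library had enough of them.

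Beyond the members, other ER genes were higher with TGFB1 in all kept cells, where 10.9% of all genes were called higher and 11.3% lower. In the list of ER folding and oxidation genes, 13 of 17 rose and none fell, with CALR (calreticulin) at 1.66 ± 0.27, DNAJB11 at 1.56 ± 0.27 and DNAJC3 at 1.57 ± 0.30 on the log2 scale. Of the ER translocation and export genes 12 of 20 rose, among them the retrieval receptor KDELR3 (1.99 ± 0.33), ARFGAP3 (1.40 ± 0.24) and the signal peptidase subunit SPCS3 (1.18 ± 0.23). Of the genes for ER-associated degradation 5 of 16 rose, with UBE2J1 at 0.68 ± 0.17, DERL2 at 1.12 ± 0.28 and SELENOS at 0.80 ± 0.20. PERK and ATF4 targets rose in 9 of 16 cases, led by CHAC1 (1.61 ± 0.32), DDIT4 (1.18 ± 0.24) and ASNS (1.06 ± 0.23). The list medians were 0.95, 0.68, 0.45 and 1.08 in that order, against -0.05 for all genes.

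Collagen folding genes rose in 6 of 13 cases, with PLOD3 at 0.87 ± 0.16, P4HA2 at 1.95 ± 0.38 and FKBP10 at 1.09 ± 0.23. Of the 11 stress sensors and proteases 2 rose, CREB3 (1.46 ± 0.32) and CREB3L2 (0.68 ± 0.18), and CREB3L3, a liver and gut relative of ATF6, fell by 1.81 ± 0.40. None of the 12 cytosolic heat shock genes passed with edgeR, and 3 had an unadjusted p below 0.05, against 36% of all genes. Of the 7 immediate early genes FOS (-1.21 ± 0.29) and EGR1 (-1.46 ± 0.44) fell. Other cell features moved with the treatment. In EPCAM-positive cells the summed level of 4 cycling genes was 4.20 to 9.10 CPM with TGFB1 against 202 to 314, and 4 of 4 fell. The summed level of the 7 mesenchymal markers there was 964 to 1110.2 CPM against 73.3 to 114. COL1A2 and COL3A1, whose absence defines the class, were at 0 there in every library, and DCN was at 0 in 1 treated library. In all kept cells 5 of the 8 hepatocyte markers fell and 1, SERPINA1, rose. AFP stood at 79.0 to 88.6 CPM with TGFB1 against 431 to 521, and ALB at 0.10 to 0.14 CPM against 3.14 to 3.35. The summed level of the 8 was 4512 to 5357 CPM against 2587 to 3913, with TF at 0 in 1 treated library. The part of these shifts in the member values was not tested.

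With OA, 6 members were higher and 1 was lower than in the OA control, against 43.3% of 19366 genes called in all kept cells, 21.7 points higher and 21.6 lower. The members' median log2 change was 1.03 against -0.08 for all genes. The chaperones, DNAJB9, HERPUD1 and XBP1 rose, DERL3 fell, and SDF2L1, MANF and CRELD2 did not pass.

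Fitted log2 changes scale libraries by the trimmed mean of log ratios (TMM). In all kept cells the members' changes with OA, and with TGFB1, lay above those that the CPM beside them give. HSPA5 stood at 1132 and 1138 CPM with OA and at 592 and 574 in its control, a log2 change of 1.29 ± 0.27 (edgeR adjusted p = 0.0019). HSP90B1 stood at 1506 and 1551 CPM against 1007 and 942, a change of 0.98 ± 0.25 (adjusted p = 0.0068). PDIA4 stood at 400.3 and 421 CPM against 258 and 218, a change of 1.12 ± 0.25 (adjusted p = 0.0029). The OA replicates of these chaperones lay close together and clear of the controls, but the share of all genes separated in this way was not counted. DNAJB9 had the largest rise, from 17.4 and 23.4 CPM to 52.8 and 48.9, a change of 1.67 ± 0.32 (adjusted p = 0.001). HERPUD1 rose from 64.7 and 67.2 CPM to 144 and 122 (1.35 ± 0.31, adjusted p = 0.0034). XBP1 rose from 102 and 118 CPM to 186 and 183 (1.08 ± 0.23, adjusted p = 0.0022), and as with HERPUD1 its groups did not overlap, again without a count over all genes.

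The other 4 members gave another picture. SDF2L1 stood at 96.2 and 84.7 CPM with OA and at 80.3 and 80.9 in the control, a log2 change of 0.50 with a 95% interval from -0.20 to 1.20. CRELD2 overlapped, at 46.3 and 43.1 CPM against 43.3 and 54.3 (0.22, interval -0.34 to 0.78). MANF stood at 120.4 and 121 CPM against 140.3 and 167, and its fitted change was -0.01 (interval -0.72 to 0.71). For MANF both OA libraries lay below both controls in CPM, without a count over all genes, while the TMM-scaled change lay at 0 within its error. DERL3 fell by 1.31 ± 0.31 on the log2 scale (adjusted p = 0.0045), from 2.92 and 3.45 CPM to 1.18 and 0.84, which is 163 and 182 UMIs against 64 and 44.

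The makeup of the OA libraries differed from that of their controls. OA libraries held 60 and 38 collagen-positive cells of 3089 and 3223, and control libraries 1927 and 1160 of 5456 and 3095. All 7 mesenchymal markers fell, to a summed level of 123 to 164 CPM from 2625 to 4421, with none at 0. EPCAM-positive cells numbered 2732 and 2849 with OA and 1766 and 715 in the control, and the members were tested within them. There 6 of 10 rose, against 35.9% of 17527 genes called and 19.1% called higher. The log2 changes were 1.14 ± 0.27 for HSPA5 (adjusted p = 0.0054), 0.82 ± 0.26 for HSP90B1 (0.024), 0.89 ± 0.26 for PDIA4 (0.016), 1.84 ± 0.31 for DNAJB9 (0.0005), 1.29 ± 0.31 for HERPUD1 (0.0058) and 0.83 ± 0.23 for XBP1 (0.013). DERL3 stood at 1.20 and 0.84 CPM there against 2.56 and 2.56 (-1.10 ± 0.44, adjusted p = 0.065). Leaving out any 1 of the 4 libraries lost some of these calls, and each such fit leaves 1 library in a group. The log2 change of HSP90B1 in these fits ran from 0.73 to 0.96.

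Within EPCAM-positive cells the summed level of the 6 gut epithelial markers was 3081 to 4375 CPM with OA and 406 to 649 in the control, and 4 of the 6 rose. None of these markers was at 0 in any of the 4 libraries. Of the 8 hepatocyte markers 6 rose and 1 fell, with summed levels of 15546 to 18033 CPM against 15872 to 16617. The 5 pancreatic acinar markers, from a gland in which DERL3 is abundant, summed to 145 to 149 CPM against 386 to 591, with PNLIP at 0 in all 4 libraries. How far these shifts bear on the members was not tested. In collagen-positive cells only OA replicate 1, with 60 cells, met the minimum, and none of the 10 members, DERL3 with no treated UMI among them, passed with edgeR or DESeq2, with 0 at an unadjusted p below 0.05. Of 14189 genes edgeR called 3.76%, and 16.8% had an unadjusted p below 0.05. HSPA5 stood at 974 CPM in those 60 cells and at 628 and 591 in the controls. In the direct comparison of the classes 7 members passed with a larger OA effect in EPCAM-positive cells, against 8.35% of 18747 genes and 6.56% in that direction. That treated arm is 1 library of 60 cells, assumed to vary like the other groups, so the calls do not measure its own spread. The sizes ran from 0.83 ± 0.24 for HSP90B1 to 2.22 ± 0.41 for DNAJB9, while the median of all genes was itself 0.80, and 0.49 with RLE size factors, under which 3 members differed. Without OA control replicate 1, and also without replicate 2, 3 members passed, namely DNAJB9, HERPUD1 and XBP1.

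Counts for the other gene lists with OA are read against 21.7% of all genes higher and 21.6% lower in all kept cells. There 11 of 17 folding and oxidation genes rose, led by HYOU1 (1.78 ± 0.24), ERO1A (1.48 ± 0.24) and DNAJC3 (1.74 ± 0.30). Of the degradation genes 7 of 16 rose and 1 fell, and the mannosidase-like EDEM3 (2.25 ± 0.17), the ligase adaptor SEL1L (1.64 ± 0.21) and SELENOS (1.61 ± 0.21) led. Of the sensors and proteases 6 of 11 rose, among them CREB3L3 (4.48 ± 0.40), EIF2AK3, which encodes PERK (1.79 ± 0.23), and ATF6 (0.60 ± 0.16). Translocation and export genes rose in 6 of 20 cases, a share nearer to that of all genes, led by ARFGAP3 (1.62 ± 0.24), SPCS3 (1.45 ± 0.23) and SRPRA (0.95 ± 0.19). PERK and ATF4 targets rose in 7 of 16 cases and fell in 2, with SLC7A11 at 2.68 ± 0.36, CHAC1 at 2.19 ± 0.33 and NUPR1 at -6.89 ± 0.74. Over 17 libraries NUPR1 differed between EPCAM-positive and collagen-positive cells by -6.97 ± 0.32. The part of this class difference in its OA change was not tested.

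Of 13 collagen folding genes 2 rose and 6 fell, led by FKBP7 (-2.44 ± 0.27), CRTAP (-2.07 ± 0.24) and FKBP10 (-1.96 ± 0.24). Of 12 heat shock genes 4 rose, also not far from the share of all genes, with HSPA1A at 1.03 ± 0.32, DNAJB1 at 0.68 ± 0.22 and BAG3 at 0.70 ± 0.25. FOSB (-1.62 ± 0.46) was the immediate early gene that fell, and none of the 7 rose. In EPCAM-positive cells, against 19.1% of all genes higher, the counts were 9 of 17 for folding, 6 of 16 for degradation, 6 of 11 for sensors, 7 of 20 for translocation and 6 of 16 for PERK and ATF4 targets, and EDEM3 stood at 2.42 ± 0.19.

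**Figure D3:**
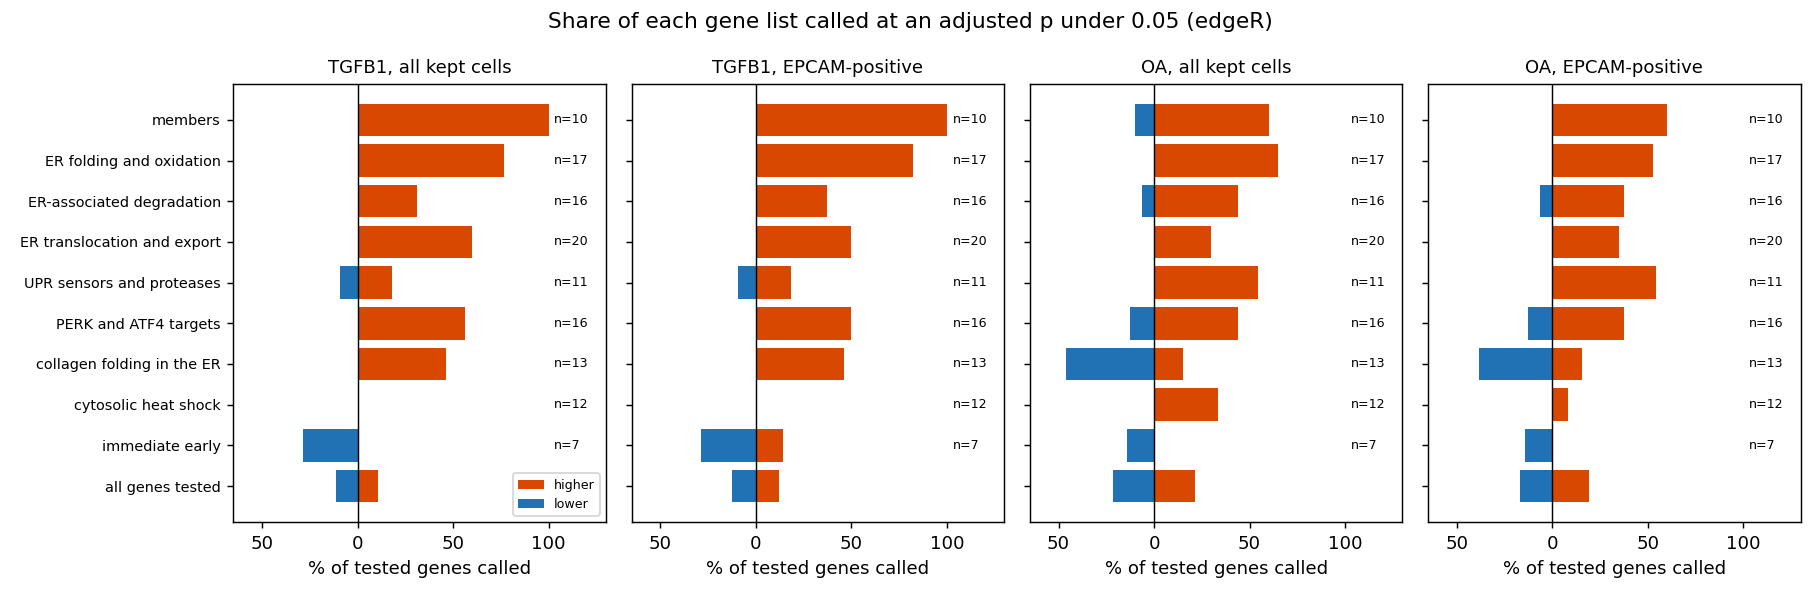
Share of the tested genes of each list called higher (right of 0) or lower (left of 0) with TGFB1 and OA, in all kept cells and in EPCAM-positive cells, beside the share of all genes tested. All 10 members were called higher in both TGFB1 panels, and with OA 6 were higher in each panel and 1 was lower in all kept cells.

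The TGFB1 and OA effects were compared directly, by a test added after each had been seen. For 4 members the TGFB1 effect was larger, against 31.8% of 19366 genes that differed, 15.4% in this direction. The difference on the log2 scale was 3.55 ± 0.44 for DERL3 (edgeR adjusted p = 6.2e-05), 2.16 ± 0.47 for MANF (0.0037), 1.50 ± 0.46 for SDF2L1 (0.024) and 1.49 ± 0.37 for CRELD2 (0.0077). For the other 6 members the difference did not pass. It was -0.03 for HSPA5 with a 95% interval from -0.84 to 0.79, and 0.10 for HSP90B1 with an interval from -0.66 to 0.85. Of the genes outside the member list, EDEM3 (-2.08 ± 0.24), SEL1L (-0.92 ± 0.28) and SELENOS (-0.81 ± 0.28) had the larger effect with OA, and CALR (1.24 ± 0.38), PPIB (1.30 ± 0.42) and DNAJB11 (1.08 ± 0.38) with TGFB1. These genes were picked by lowest p within their lists and do not describe the lists as wholes. The ER stress element shown above was found both in HSPA5, HSP90B1 and XBP1, which rose with TGFB1 and with OA, and in CRELD2, which rose with TGFB1. Its second form was found in HERPUD1, which rose with both, and in SDF2L1, which rose with TGFB1. A link between these letters and the effects was not tested. Without TGFB1 replicate 1 the number of members that differed was 2.

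PA at the same dose as OA left no member past the threshold. In all kept cells 0 of 10 passed with edgeR and with DESeq2, 1 had an unadjusted p below 0.05, and edgeR called 0.0465% of 19366 genes, with 2.79% at an unadjusted p below 0.05. The log2 change was positive for 9 of 10, with a median of 0.26 against 0.02 for all genes. XBP1 had the largest, from 79.8 and 91.1 CPM in the control to 107 and 134 with PA, which is 0.55 ± 0.23 with a 95% interval from 0.05 to 1.05 before adjustment (adjusted p = 1). HSPA5 stood at 994 and 925 CPM with PA and at 838 and 835 in the control (0.25, interval -0.33 to 0.83). Both PA libraries lay above both controls for XBP1, HSPA5 and SDF2L1 (129 and 105 against 104 and 96.2 CPM) and below them for DERL3 (0.76 and 0.93 against 1.02 and 1.08 CPM), and the other 6 members overlapped. Of all genes tested 8.38% lay above and 14.7% below in the same sense, and none of these 4 members passed. The other members lay between -0.23 and 0.36 on the log2 scale, and their 95% intervals lay between -1.03 and 1.04. DNAJB9, at 25.7 and 44.6 CPM with PA and at 24.1 and 32.8 in the control, shows how far apart the replicates were.

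The classes gave the same count with PA. In EPCAM-positive cells 0 of 10 passed with either tool, with 1 at an unadjusted p below 0.05, against 0.103% of 17527 genes passing and 2.48% at an unadjusted p below 0.05. In collagen-positive cells 0 of 10 passed with either tool and 0 had an unadjusted p below 0.05, against 0% of 14189 genes passing and 4.09% at the unadjusted level. Another rule was chosen after seeing the data: at least 10 collagen UMIs and 10 times those of EPCAM. Under it PA control replicate 1 and PA replicate 1 held 22 and 40 collagen-positive cells in place of 229 and 402. Replicates 2 of these groups held 332 and 319 in place of 577 and 536. Between the classes 0 of 10 differed with either tool and at an unadjusted p below 0.05, against 0.0107% of 18747 genes passing and 3.68% at the unadjusted level. XBP1 in EPCAM-positive cells stood at 109.8 and 139 CPM against 84.4 and 94.6. DERL3 had 1 and 8 UMIs in the collagen-positive cells with PA and 2 and 12 in the control, too few to show a change.

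PA and OA, both at 500 µM, were compared over 1 pair of effects in the same fit. The PA effect was smaller by 1.08 ± 0.35 for PDIA4 (edgeR adjusted p = 0.043), and this was the only member past the threshold. The share of all 19366 genes was 20.5%, with 10.2% in this direction, so 1 of 10 is no result about the members. For HSPA5 the difference was -1.04 with a 95% interval from -1.86 to -0.23 (adjusted p = 0.067), and for DNAJB9 it was -1.31 with an interval from -2.26 to -0.35 (adjusted p = 0.053). MANF, at 0.30 with an interval from -0.71 to 1.32, lay near 0. The count was unstable: DESeq2 gave 4 members and 23.4% of all genes, and with edgeR 0 remained without OA replicate 1 or 2, OA control replicate 2, or PA control replicate 1 or 2. PDIA4 itself also did not pass without PA replicate 2 (adjusted p = 0.12). Each compound had its own control, and whether the experiments were run side by side is not stated.

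The levels of HSPA5 in the 3 control groups and in untreated shaker organoids are set side by side here without a test among the controls. HSPA5 stood at 592 and 574 CPM in the OA control, at 594 and 811 in the TGFB1 control, at 838 and 835 in the PA control and at 1216 and 757 in untreated organoids. OA control and untreated libraries, which were listed over the same genes, were tested against each other. With edgeR 0 of 10 members passed and 3 had an unadjusted p below 0.05, against 0.573% and 14.6% of 19366 genes. DESeq2 called 1 of the 10 members and 3.62% of all genes. DERL3 had the lowest adjusted p, 0.1, at 2.92 and 3.45 CPM against 1.49 and 1.55. Untreated replicate 1 was higher than replicate 2 in 9 of the 10 members, DERL3 being the other.

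In ULA culture, 4 members were lower at day 34 than at day 21 in all kept cells, against 15.6% of 22261 genes called and 7.19% called lower. XBP1 fell by 1.36 ± 0.20 on the log2 scale (edgeR adjusted p = 0.007), from 241, 219.6 and 226 CPM to 82.0 and 112. DERL3 fell by 1.86 ± 0.25 (adjusted p = 0.0053), from 6.47, 7.52 and 5.54 CPM to 1.84 and 2.07. DNAJB9 fell by 0.95 ± 0.19 (adjusted p = 0.018), from 49.4, 58.6 and 42.7 CPM to 27.3 and 29.7. HERPUD1 fell by 0.70 ± 0.17 (adjusted p = 0.033), from 137, 136 and 112 CPM to 87.7 and 85.3. No day 34 library reached the level of a day 21 library in these 4 genes. The same held for HSPA5, which did not pass (313 and 403 CPM against 419 to 455). The share of all genes separated in this way was not counted. The other 6 members did not pass, and the day 34 replicates differed widely for SDF2L1 (36.7 and 117 CPM) and CRELD2 (33.1 and 69.4 CPM). Leaving out a day 21 library in turn left 1, 2 and 2 members past the threshold.

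The hepatocyte markers fell over the same interval, from a summed 1949 to 2188 CPM to 81.5 to 747 CPM, and 5 of the 8 passed. Day 34 organoids also had an extra wash and 10 more minutes in trypsin than day 21 organoids, and 3 of 7 immediate early genes were higher, with JUN at 2.13 ± 0.30. The part of handling and of cell makeup in the member values was not tested. Within collagen-positive cells (2212, 3047 and 2323 cells at day 21, 2143 and 3936 at day 34) 4 of 10 members were lower, against 17.7% of 17414 genes, with 7.2% lower. They were XBP1 (-1.32 ± 0.21), DERL3 (-1.83 ± 0.26), DNAJB9 (-1.16 ± 0.17) and HERPUD1 (-0.95 ± 0.19). The count in this class changed when day 34 replicate 2 was left out. That fit leaves 1 day 34 library and takes its spread from day 21.

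In EPCAM-positive cells the day 34 value rested on replicate 2 alone (747 cells), since replicate 1 held 23. CRELD2 (1.27 ± 0.23), MANF (0.89 ± 0.19) and SDF2L1 (0.80 ± 0.20) were higher there and XBP1 was lower (-0.94 ± 0.22), which is 4 of 10 against 17.6% of 17581 genes, 9.25% higher and 8.32% lower, with the lone library assumed to vary like the others. The change with day differed between the classes for 5 members, against 20.5% of 19879 genes and 8.17% in the same direction. The log2 change was larger in EPCAM-positive cells by 1.46 ± 0.19 for DNAJB9, 1.66 ± 0.52 for DERL3, 1.01 ± 0.21 for CRELD2, 0.68 ± 0.16 for MANF and 0.45 ± 0.14 for HSPA5. Day 34 replicate 2 also lay above replicate 1 in collagen-positive cells for CRELD2, MANF and SDF2L1. The values were 76.1 against 35.1, 203 against 111 and 135 against 40.2 CPM in that order. How far this difference between replicates enters the EPCAM-positive changes was not tested. Between 1592 and 7415 cells of each ULA library held UMIs of both kinds and were in neither class. When these cells were kept in both classes, 0 members rose and 3 fell in EPCAM-positive cells. That setting also brought in day 34 replicate 1, with 2170 cells. DNAJB9 and SDF2L1 changed sign under it, and CRELD2 and MANF stayed positive without passing.

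Untreated shaker organoids at day 25 were set against ULA organoids at day 21, and members passed in both directions. HSPA5 (1.18 ± 0.23), HSP90B1 (1.30 ± 0.22) and PDIA4 (1.74 ± 0.24) were higher on the shaker, and DNAJB9 (-1.13 ± 0.28), HERPUD1 (-0.90 ± 0.27), DERL3 (-2.08 ± 0.28) and XBP1 (-0.86 ± 0.22) were lower. This is 7 of 10 members, against 45% of 20073 genes called by edgeR, 24.2% higher and 20.8% lower. SDF2L1, MANF and CRELD2 did not pass. PDIA4 stood at 396 and 368 CPM on the shaker and at 107, 108 and 130.5 in ULA culture, with no overlap but without a count over all genes. The libraries also differed in day, dissociation and the reference gene set, and TXNDC5, another ER oxidoreductase, differed by 6.38 ± 0.36, so culture form and processing cannot be told apart. PERK and ATF4 targets were lower in 12 of 16 cases. Without untreated replicate 2, 4 of the 10 members passed.

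Across the 17 libraries with at least 50 cells of each class, 5 members differed between EPCAM-positive and collagen-positive cells of the same library. Of all 14681 genes tested 66.1% differed, 31.3% higher and 34.8% lower in EPCAM-positive cells, so the members' share was below the background. XBP1 was the member with a higher level in EPCAM-positive cells, by 0.45 ± 0.14 on the log2 scale (edgeR adjusted p = 0.0076), and it was higher there in 14 of 17 libraries. Its CPM ran from 83.2 over a median of 136 to 311 in EPCAM-positive cells and from 62.5 over 109.6 to 229 in collagen-positive cells. The 3 libraries with the lower value in EPCAM-positive cells belong to the TGFB1 experiment: both controls (83.2 against 134 and 99.6 against 133 CPM) and TGFB1 replicate 2 (134 against 140.0).

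DERL3, CRELD2, MANF and DNAJB9 were lower in EPCAM-positive cells. DERL3 differed by -1.64 ± 0.36 (adjusted p = 0.00049) and was lower in 14 of 17 libraries, with a median of 1.98 CPM against 4.03. CRELD2 differed by -0.75 ± 0.16 (adjusted p = 0.00028) and MANF by -0.39 ± 0.11 (adjusted p = 0.0045), each lower in 15 of 17 libraries. DNAJB9 differed by -0.52 ± 0.21 (adjusted p = 0.032) and was lower in 11 of 17, and it did not pass in 10 of the 17 fits that leave out 1 library. In all 4 libraries of the PA experiment DNAJB9 was higher in EPCAM-positive cells (25.8 against 12.1 and 33.4 against 22.5 CPM in the controls). For HSPA5 (-0.08, 95% interval -0.35 to 0.20), HSP90B1 (-0.02, interval -0.20 to 0.15) and PDIA4 (0.04, interval -0.19 to 0.27) the mean difference over libraries was near 0, but the experiments went different ways. HSPA5 was higher in collagen-positive cells in all 4 libraries of the TGFB1 experiment (564 against 1055 and 792 against 1276 CPM in its controls) and in EPCAM-positive cells in all 4 of the PA experiment (894 against 590 and 868 against 645 CPM in its controls). PDIA4 was also higher in collagen-positive cells in all 4 TGFB1 experiment libraries. In the same comparison 11 of 13 collagen folding genes and 13 of 20 translocation and export genes were lower in EPCAM-positive cells, with FKBP14 at -1.62 ± 0.11 and SEC63 at -0.64 ± 0.07.

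**Figure D4:**
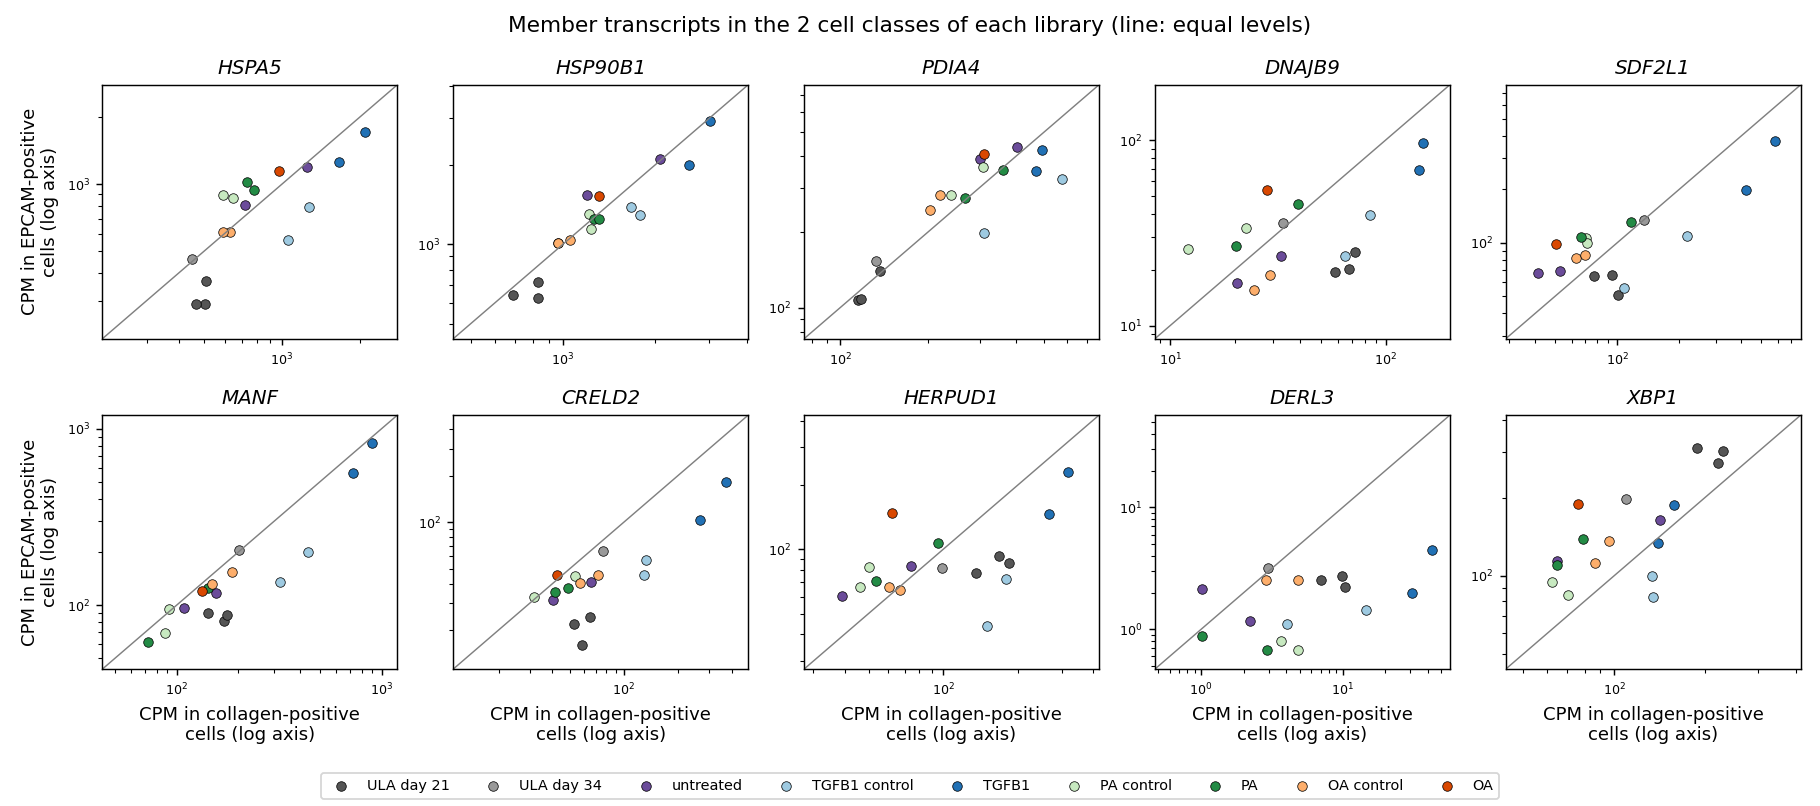
CPM of each member in EPCAM-positive cells (vertical, log axis) against collagen-positive cells (horizontal, log axis) of the same library, for libraries with at least 50 cells of each class. Points above the line are higher in EPCAM-positive cells: 14 of 17 for XBP1 and 2 of 17 for MANF and CRELD2. OA replicate 1, which had no DERL3 UMI in collagen-positive cells, is not drawn for DERL3.

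Gland and plasma cells are known to express much DERL3, so their markers are given beside it. In the collagen-positive cells of the TGFB1 libraries, where DERL3 stood at 42.8 and 31.2 CPM, the 5 acinar markers summed to 2.19 to 3.52 CPM with CPA1 and CELA3A at 0. The 5 plasma cell markers summed to 8.75 to 11.1 CPM, with MZB1, IGKC and TNFRSF17 at 0. Which cells of this class hold the DERL3 UMIs was not tested.

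The order of the 9 groups differed between members, on CPM that divide by all UMIs over each library's own gene set. TGFB1 had the highest mean for 8 of the 10, OA for PDIA4 and day 21 ULA for XBP1. HSPA5 ran from 1490 ± 282 CPM (SD, n = 2) with TGFB1 over OA (1135 ± 4.38), untreated (987 ± 325), PA (959.5 ± 48.9), PA control (837 ± 2.57), TGFB1 control (702 ± 153), OA control (583 ± 12.8) and ULA day 21 (437 ± 18.1, n = 3) to ULA day 34 (358 ± 63.7). Of these 8 steps, the ranges overlapped between OA and untreated and between untreated and PA. XBP1 ran from 229 ± 10.9 CPM (n = 3) at ULA day 21 over OA (184 ± 2.21) and TGFB1 (157 ± 32.1) down to the PA control (85.4 ± 7.97), and 6 of its 8 steps overlapped. DERL3 ran from 7.97 ± 1.96 CPM with TGFB1 and 6.51 ± 0.993 (n = 3) at ULA day 21, which overlapped, to 0.842 ± 0.121 with PA. CRELD2 had the flattest order below the top: 159.6 ± 51.3 CPM with TGFB1 stood apart, and the other 7 steps overlapped, from 55.5 ± 7.08 in the TGFB1 control to 38.2 ± 2.11 with PA.

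Over the 9 group means of log2(CPM + 1) the members did not form 1 pattern. As a description, HSPA5 correlated with HSP90B1 at a Pearson r of 0.940 and with PDIA4 at 0.945, but with XBP1 at 0.143 and with DERL3 at -0.094. DERL3 was closest to MANF (0.757) and CRELD2 (0.701), and XBP1 to HERPUD1 (0.752) and DNAJB9 (0.640). Of 6225 other genes with a mean of at least 20 CPM, those most like HSPA5 were NUCB1 (0.958), PPIC (0.955), ABHD12 (0.953), TMEM92 (0.953) and EFR3A (0.948). Those most like XBP1 were OCIAD1 (0.899), AKR1A1 (0.861), SAR1B (0.860), PSMC4 (0.850) and TMX1 (0.840), and those most like DERL3 were RTCB (0.950), YARS2 (0.948), DDOST (0.938), NAA20 (0.935) and SEC11A (0.933). The 9 points share libraries of differing depth and 3 reference gene sets.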

How the data were processed

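The deposited files hold, for each of 19 libraries, a matrix of UMI counts per gene and cell barcode that the authors made with Cell Ranger 3.0.2 on GRCh38, per the submitters' processing notes; the file headers give software versions 3.0.2 and, for the OA, OA control and untreated shaker libraries, 6.0.2. The matrices are raw whole-number counts, and the features and barcodes files hold names with no other measurement. The deposited matrices list different reference gene sets, so the edgeR test of shaker against ULA libraries used shared identifiers only. CPM divide by all UMIs over a library's own gene set, also where ULA and shaker levels are set side by side.

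Cells with at least 500 genes and at most 20% counts from genes named MT- were kept. No doublets were removed in the values given; an alternative removed 0.8% per 1000 barcodes by Scrublet score in scanpy 1.11.5. UMIs were summed per library, and per class with at least 50 cells, and tested with edgeR 4.0.16 (quasi-likelihood, TMM, R 4.3.3), with p-values adjusted by Benjamini-Hochberg over all genes tested. The shaker comparisons share 1 fit of 14 libraries, and the 5 ULA libraries have their own. In the class comparison the library was a block. DESeq2 1.42.0 was an alternative, as were RLE factors, no low-count filter, mitochondrial genes left out, stricter cells (1000 genes, 10%), other class definitions and each library left out. The code was tested on simulated counts. Intervals cover the spread between libraries.

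The members and all gene lists were chosen with earlier results of these data known. From each list, up to 3 called genes of lowest p were named, and for likeness the 5 genes of highest correlation. In the 5 ULA libraries, UMIs of the pseudogene HSP90B2P were at most 0.27% of those of HSP90B1; it was not analysed in the shaker libraries.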

Additional observations from a re-analysis of the deposited data

Results flagged for a closer look

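Between treatments, the difference between the TGFB1 and the OA effect passed the threshold (edgeR, adjusted over all genes) for DERL3 (3.55), MANF (2.16), SDF2L1 (1.50) and CRELD2 (1.49), on the log2 scale. The difference between the PA and the OA effect passed for PDIA4 (-1.08), 1 of 10 members against 10.2% of all genes in this direction, and PDIA4 did not pass in 6 of the 8 fits that leave out 1 library.

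Between cell classes, the TGFB1 effect was larger in EPCAM-positive than in collagen-positive cells for MANF (0.82) and HERPUD1 (0.73). Without TGFB1 replicate 1, and also without TGFB1 control replicate 2, 0 members passed there, and without control replicate 1 there was 1. The OA effect was larger there for DNAJB9 (2.22), HERPUD1 (1.85), XBP1 (1.51), CRELD2 (1.33), SDF2L1 (1.25), HSPA5 (0.86) and HSP90B1 (0.83), but the treated collagen-positive arm is 1 library of 60 cells (OA replicate 1), whose spread is borrowed from the other groups, and the median of all genes was 0.80. Without either control library, DNAJB9, HERPUD1 and XBP1 passed and the other 4 did not. The change from day 21 to day 34 in ULA culture was larger there for DERL3 (1.66), DNAJB9 (1.46), CRELD2 (1.01), MANF (0.68) and HSPA5 (0.45), with EPCAM-positive cells of day 34 replicate 2 alone. With cells holding both kinds of UMIs kept, which also brings in day 34 replicate 1, the EPCAM-positive change of DNAJB9 itself was -0.86 and 0 members rose.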

How the results depend on the processing

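Counts are members past the threshold of 10. With DESeq2 the count was 4 for TGFB1 in collagen-positive cells, 4 for PA minus OA, 1 for OA control against untreated and 3 for the class difference of OA. Without the low-count filter it was 6 for TGFB1 in collagen-positive cells, 3 for PA minus OA and 1 for OA control against untreated. For PA minus OA it was 2 with doublets removed, 2 with RLE factors, 5 with only the groups compared and 0 with stricter cells. For the class difference of OA it was 3 with RLE factors and 4 without mitochondrial genes. With cells holding both kinds of UMIs kept in both classes, the count was 3 between the classes, 5 for TGFB1 and 2 for OA in collagen-positive cells, 1 for the class difference of TGFB1 and 1 for that of OA, where it also brought in OA replicate 2 (182 collagen-positive cells in place of 38). In ULA EPCAM-positive cells that setting reversed DNAJB9 to -0.86 and SDF2L1 to -0.18 on the log2 scale. Requiring 2 UMIs for a class gave 1 for the class difference of TGFB1. Classes by the balance of UMIs, chosen after seeing the data, gave 2 for TGFB1 in collagen-positive cells and 1 for ULA EPCAM-positive cells. The cause of these shifts was not tested. Leaving out a library from a group of 2 leaves 1, whose spread is then borrowed from other groups.

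Leaving out each library in turn gave 6 to 9 for TGFB1 in all kept cells, 5 to 9 in EPCAM-positive and 0 to 8 in collagen-positive cells, and 0 to 2 for the difference. It gave 6 to 7 for OA in all kept cells, 1 to 4 in EPCAM-positive cells and 3 to 3 for the difference. It gave 2 to 4 for TGFB1 minus OA, 0 to 1 for PA minus OA, 1 to 6 for ULA day 34 in all kept cells, 3 to 8 in collagen-positive and 3 to 4 in EPCAM-positive cells, 4 to 7 for the ULA class difference, 4 to 7 for untreated shaker against ULA and 4 to 5 between the classes. It gave 0 to 0 for the PA results, OA control against untreated and OA in collagen-positive cells.

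The replicate numbers were not used as pairs in the values given. Correlations of replicate differences were -0.19 for TGFB1, 0.08 for PA, 0.04 for OA and -0.29 for ULA. They cannot exclude a shared batch, since depth also differed between replicates. A replicate block gave 10 members for TGFB1 and 0 for ULA day 34 in all kept cells, and for TGFB1 it called 3144 genes in place of 4295. Crossed pairing, added after seeing the data, gave 10 members and 5582 genes for TGFB1. Leaving out OA replicate 1, the stricter filter and the balance of UMIs gave no value for OA in collagen-positive cells, nor did the block for ULA EPCAM-positive cells.

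Values of single members under the alternatives kept their call, or stayed uncalled and within their standard error, in 2635 cases. These 2 kinds were not counted apart. A call was lost in 136 cases and gained in 62, and the sign reversed in 2 with a call. In 94 cases uncalled values moved by their standard error or more. Depth limited DERL3 in the classes, with as few as 0 UMIs in a library.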
